A study of Gallus gallus with 16 samples.

Results

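Gonads of female chicken embryos that had received methyltestosterone were compared with gonads of untreated female embryos at embryonic day 19. Methyltestosterone is a synthetic androgen, and the labels give a dose of 30 pg per g body weight without a vehicle. The untreated embryos received no substance. Gonads were dissected free of the tissue around them, per the labels' protocols. Transcripts were counted by SuperSAGE, which reads 1 short tag per transcript next to a fixed cutting site, so that levels need no correction for transcript length. The comparison was chosen as 4 of the 16 libraries of the series, the left and right gonads of both groups, each from RNA of 10 individuals. The deposited table joins the 2 sides into 1 column per sex and substance. It holds 2 female columns for this comparison and 6 others, which are untreated and methyltestosterone males and both sexes after sesame oil or after 10 pg tributyltin tin per g body weight.

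In the bird ovary the left gonad forms a cortex with germ cells and a medulla that makes steroids, while the right gonad of females regresses. Oestrogen from aromatase (CYP19A1), which converts androgens, keeps the ovarian fate, and FOXL2, RSPO1 and WNT4 belong to the same ovarian programme. In the testis DMRT1 and SOX9 act in Sertoli cells, which secrete anti-Müllerian hormone (AMH), and the embryonic ovary secretes AMH at a lower level.

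The untreated female column held 2301752 tags and the methyltestosterone female column 3154653. One tag was 0.434 RPM (tags scaled to a common total per column) and 0.317 RPM in them. The oil and tributyltin female columns were far shallower, at 314810 and 388795 tags, so 1 tag there was 3.18 and 2.57 RPM. The 10 genes on the W chromosome, which females alone carry, summed to 324 RPM in the untreated and 235 RPM in the methyltestosterone female column, against 36.9 and 33.9 RPM in the matching male columns. Gut-type genes stood high in the untreated female column, as described with their values in a later paragraph. Each group was 1 column, so no difference within females has a test or a replicate check. The 95% intervals given for levels (exact Poisson) and for ratios (exact binomial) cover counting error alone and not the variation between animals, and copies of 1 molecule made by PCR could not be told from separate molecules.

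The level averaged over both female columns reached 10 RPM for 6273 genes. Of these, 770 were at least 2-fold higher after methyltestosterone (12.3%) and 533 at least 2-fold lower (8.5%), on a scale of log2(RPM + 1). Those shares over all genes are the background for the counts of each gene list below. For 332 of the higher and 271 of the lower genes the whole counting interval of the ratio lay past 2-fold. The median log2 difference over all 6273 genes was 0.10, with quartiles of -0.42 and 0.60. The 770 higher genes together went from 42816 to 114266 RPM, and the 533 lower genes from 119333 to 42560 RPM. On the Z chromosome 38 of 305 genes were higher and 29 lower, with a median log2 difference of 0.02, and on the numbered autosomes 695 of 5775 were higher and 488 lower, with a median of 0.10.

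AMH, on chromosome 28, was the most abundant of the sex genes that differed. It stood at 1486 RPM in untreated females (95% interval 1437 to 1537) and at 6774 RPM after methyltestosterone (6684 to 6866). The oil and tributyltin females had 1242 and 977 RPM. In males the 4 columns read 10186 RPM untreated, 10834 after methyltestosterone, 8167 after oil and 6912 after tributyltin. The methyltestosterone female column was thus the highest of the 4 female columns and lay just below the lowest male one. The ratio to untreated was 4.56 in females (4.40 to 4.73), a log2 difference of 2.19, whereas in males the log2 difference was 0.09. AMH ranked 69th among the 6273 genes by the size of its female increase.

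Whether the gap between the sexes after methyltestosterone departed from the gap after the other 3 substances was tested with limma over all 8 columns. AMH had an estimate of 2.09 on the log2 scale (SE 0.39) and ranked second of 9280 genes by its p. The Benjamini-Hochberg adjusted p in limma was 0.999983, so it was not called. The same contrast on recovered tags gave an adjusted p of 0.0216 with edgeR and of 0.000794 with DESeq2. When 1 column of a substance was left out, its other column was fitted by its own term. The 2 fits of a substance thus gave the same estimate and are not separate checks. The AMH estimate was 2.07 without either tributyltin column, 2.12 without either oil column and 2.09 without either untreated column. AMH was called without either tributyltin column, and not called without an oil or an untreated column. In limma 0 genes (0.0%) were called for this contrast. Of the 9280 genes 163 had a raw limma p under 0.05, fewer than the share of 0.05 expected if no gene differed. edgeR called 4 genes with a higher and 1 with a lower female minus male difference after methyltestosterone, and DESeq2 3 and 0. Beside AMH these were the ribosomal protein genes RPS28 and RPLP0, the gene ENSGALG00000026142 and, with a lower difference, TSPAN8. TSPAN8 was near the floor in males, at 0.512 RPM untreated, 2.10 after methyltestosterone and 0 tags after oil and tributyltin. RPLP0 was 1082 and 978 RPM in untreated and methyltestosterone females and 2212 and 497 RPM in the males.

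**Figure D1:**
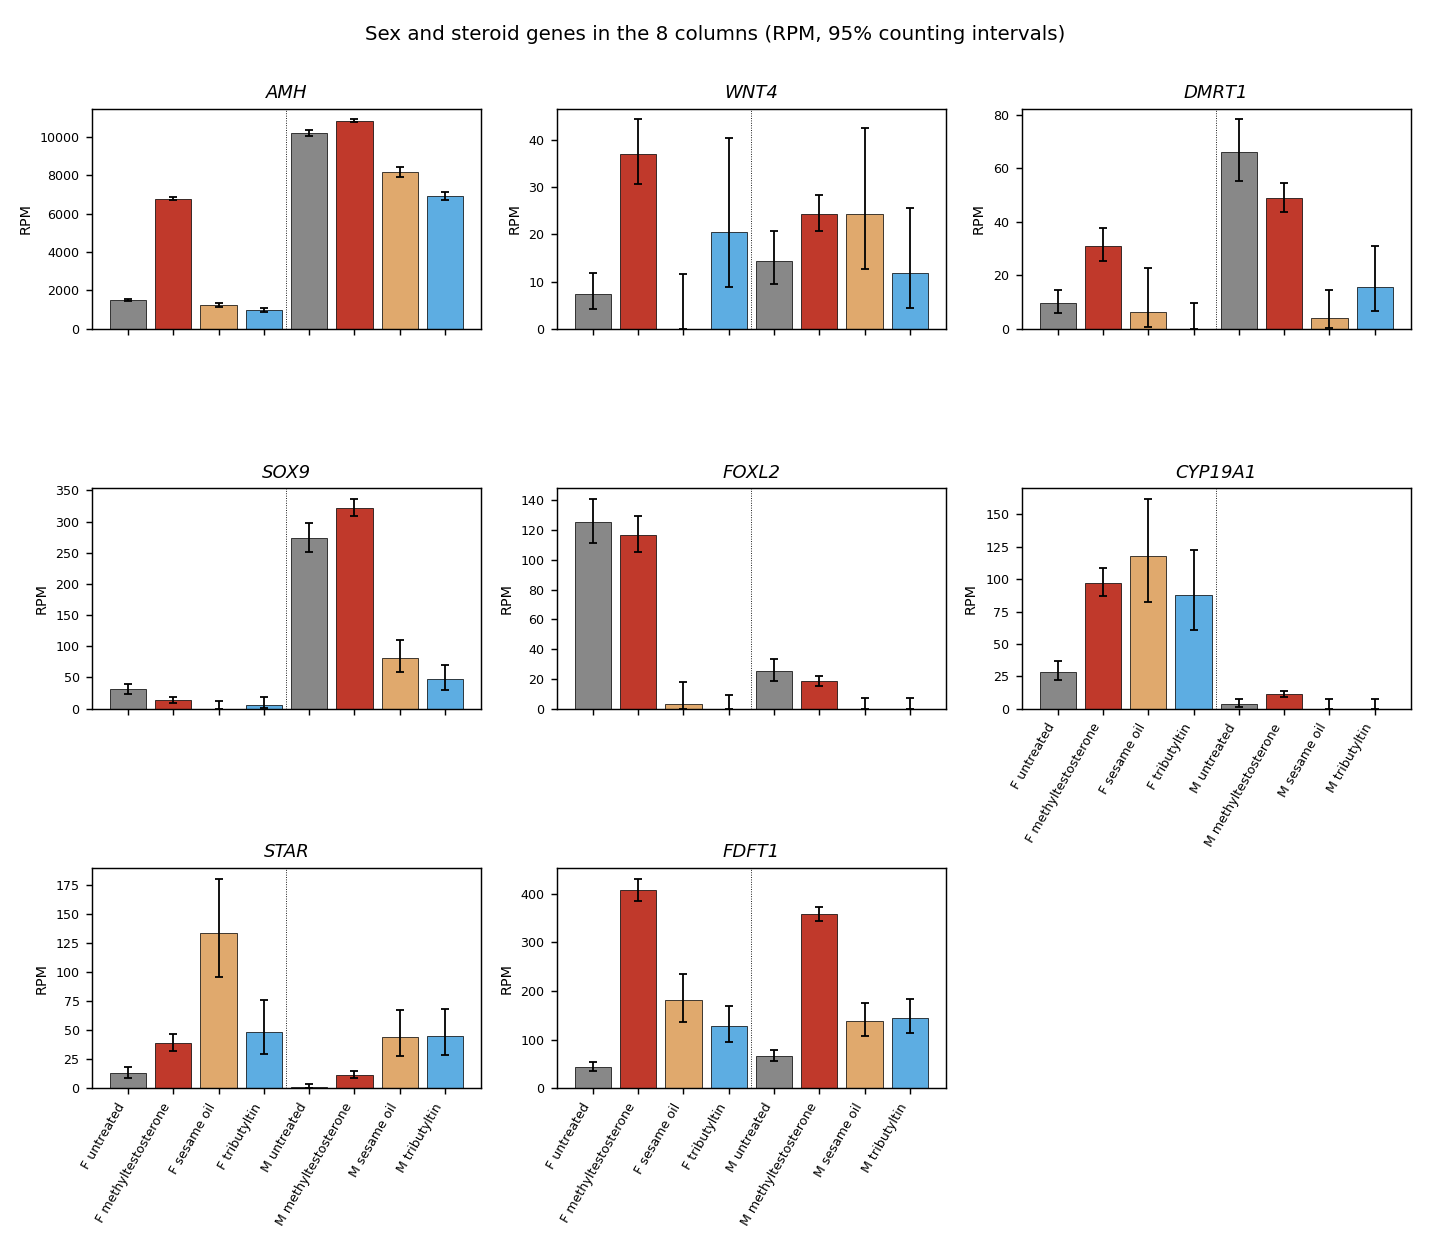
Level of 8 genes in RPM (vertical axis, linear, from 0) in the 8 columns of sex and substance, females left of the dotted line and males right of it, with bars for the deposited value and lines for the exact Poisson 95% counting interval. AMH reaches 6774 RPM in methyltestosterone females against 977 to 1486 RPM in the other 3 female columns, and FDFT1 is highest after methyltestosterone in both sexes, at 408 and 358 RPM.

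Of the 10 measured genes for steroid receptors and androgen metabolism, 2 were at least 2-fold higher, AKR1D1 among them, AKR1B1 was lower and 7 were within 2-fold, with a median log2 difference of -0.15. AKR1D1, the 5β-reductase that inactivates androgens, had 302 RPM untreated and 625 RPM after methyltestosterone, a ratio of 2.07 (1.90 to 2.26). AKR1B1, an aldose reductase, had 113 and 51.0 RPM, with 38.1 after oil and 66.9 after tributyltin, so untreated was 2.21-fold higher (1.81 to 2.71). SRD5A2, a 5α-reductase that makes dihydrotestosterone, had 27.4 RPM untreated and 13.9 RPM after methyltestosterone, just within 2-fold, with 22.2 and 12.9 RPM after oil and tributyltin. Oestrogen receptor ESR1 and progesterone receptor PGR had 0 tags in both columns, where 3 tags, the floor used here, would be 1.30 and 0.951 RPM. ESR2 had 2 tags and 18 tags.

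Among 13 measured genes known to respond to androgen in other tissues, chiefly in mammals, 1 was at least 2-fold higher, TMPRSS2 and SGK1 were lower and 10 were within 2-fold. The median log2 difference of that list was 0.05, near the 0.10 of all genes. TMPRSS2, a protease gene induced by androgen in the human prostate, had 17.4 RPM untreated, 2.85 RPM after methyltestosterone, 0 tags after oil and 20.6 RPM after tributyltin. SGK1, a kinase gene that steroids induce, had 214, 80.8, 79.4 and 126 RPM in that order.

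Among 9 measured genes of the testis and Sertoli cell list, AMH and DMRT1 were higher, PTGDS and SOX9 lower, and 5 were within 2-fold. DMRT1, the Z-linked testis determinant of birds, had 9.56 RPM in untreated females (5.99 to 14.5) and 31.1 RPM after methyltestosterone (25.2 to 37.9). Oil females had 6.35 RPM and tributyltin females 0 tags, and the males had 66.0 RPM untreated, 49.0 after methyltestosterone, 4.06 after oil and 15.7 after tributyltin. The methyltestosterone value was the highest of the 4 female columns, below 2 of the male columns and above the other 2. SOX9, the Sertoli transcription factor, went the other way, with 30.8 RPM untreated and 13.6 RPM after methyltestosterone, with 0 tags after oil, 5.14 RPM after tributyltin, and 273 and 322 RPM in untreated and methyltestosterone males. PTGDS, a prostaglandin D synthase, stood at 278 and 97.95 RPM in those females, with 22.2 RPM after oil, 28.3 after tributyltin and 20.8 to 31.5 RPM in males. For SOX9 and PTGDS the untreated column was at least 2-fold above each other female column, and for PTGDS above all 7 others. HEMGN, a Z-linked gene active in the male gonad, had 4 tags untreated and 17 tags after methyltestosterone, a ratio of 3.10 with a counting interval of 1.01 to 12.7. INHBB, an inhibin subunit, had 5 and 3 tags, and INHA 0 in both.

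The ovarian list moved both ways, with 4 of 15 measured genes at least 2-fold higher, 3 lower and a median log2 difference of 0.08. Aromatase, CYP19A1, had 28.7 RPM untreated (22.2 to 36.5) and 97.3 RPM after methyltestosterone (86.7 to 109), a ratio of 3.39 (2.59 to 4.50). The oil and tributyltin females had 118 and 87.5 RPM, so untreated was the low column and methyltestosterone lay between the other 2. The untreated and methyltestosterone males had 3.58 and 11.1 RPM. GREB1, an oestrogen response gene, was likewise lowest in the untreated column, at 32.1 RPM untreated, 89.1 after methyltestosterone, 111 after oil and 121 after tributyltin. HHIPL2, a hedgehog-interacting-protein-like gene, differed from both: its 521 RPM after methyltestosterone stood above 133 RPM untreated and above 254 and 247 RPM after oil and tributyltin.

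WNT4, a signalling ligand of ovarian development, had 7.39 RPM untreated (4.30 to 11.8) and 37.1 RPM after methyltestosterone (30.7 to 44.4). It had 0 tags after oil, 20.6 RPM after tributyltin, and 11.8 to 24.4 RPM in the 4 male columns. The methyltestosterone female value was the highest of all 8, and the ratio to untreated was 5.02 (3.01 to 8.91). Its counting interval overlapped those of tributyltin females (8.88 to 40.5) and oil males (12.6 to 42.6), so counting error leaves that rank unresolved. RSPO1, which strengthens Wnt signals, had 28.7 and 53.6 RPM, within 2-fold. FOXL2, the transcription factor of granulosa cells, stood at 126 RPM untreated and 117 RPM after methyltestosterone. The ratio of untreated to methyltestosterone was 1.07 (0.917 to 1.26), while the oil column held 3.18 RPM and the tributyltin column 0 tags. Males had the same split for FOXL2, with 25.1 RPM untreated, 18.4 after methyltestosterone and 0 tags after oil and tributyltin. What set the oil and tributyltin columns apart was not tested.

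The 3 lower genes of the list included the growth factor gene BMP4 and the activin subunit INHBA. BMP4 had 144 RPM untreated and 27.3 RPM after methyltestosterone, with 12.7 RPM after oil and 61.7 after tributyltin. It was also at least 2-fold lower in males, with a log2 difference of -1.53. INHBA had 16.9 and 5.71 RPM in females and a male log2 difference of 0.46.

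Of 12 measured steroid synthesis genes, 4 were at least 2-fold higher, 0 were lower, and the median log2 difference was 0.40. Over all genes measured 12.3% were higher and 8.5% lower. CYP17A1, which makes androgens and was among the most abundant transcripts, had 9986 RPM untreated and 10473 RPM after methyltestosterone, a ratio of 1.05. HSD3B2, which completes progesterone synthesis, had 469 and 454 RPM. STAR, which carries cholesterol into mitochondria, had 13.0 and 39.0 RPM, a ratio of 2.99 (1.99 to 4.62), and LHCGR, the receptor for luteinising hormone, had 10.9 and 31.7 RPM, a ratio of 2.92 (1.87 to 4.72). Both were higher still in oil females, each at 133 RPM, and in tributyltin females, at 48.9 and 72.0 RPM. HSD17B12, a hydroxysteroid dehydrogenase, had 40.8 and 88.1 RPM and was higher after methyltestosterone than in the oil (28.6 RPM) and tributyltin (38.6 RPM) females as well. FSHR, the receptor for follicle-stimulating hormone, had 149 and 230 RPM, within 2-fold.

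Cholesterol synthesis genes had 3 of 15 measured members higher, 1 lower and a median log2 difference of 0.20, beside 12.3% higher and 8.5% lower over all genes. FDFT1, squalene synthase, had 44.7 RPM untreated (36.5 to 54.3) and 408 RPM after methyltestosterone (386 to 431). Oil and tributyltin females had 181 and 129 RPM, and the males had 66.5 RPM untreated, 358 after methyltestosterone, 138 after oil and 146 after tributyltin. In both sexes methyltestosterone was the highest column and untreated the lowest. The female ratio was 9.11 (7.45 to 11.2). FDFT1 had the smallest p of any gene in the limma fit over both sexes, with a log2 estimate of 2.79 (SE 0.30, Benjamini-Hochberg adjusted p = 0.0158). DHCR7, the reductase of the last step, had 63.4 RPM untreated and 139 RPM after methyltestosterone, with 118 after oil (82.8 to 162) and 61.7 after tributyltin. SREBF2, the transcription factor that induces this pathway, had 282 and 83.7 RPM, with 143 after oil and 195 after tributyltin. Of 18 measured fatty acid and lipid genes 0 were higher and 2 lower, ELOVL1 and ME1, with a median of -0.47.

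Among the 12 largest falls of genes with a symbol and at least 50 RPM in a column, many were of genes known from gut epithelium. PLA2G2E, a secreted phospholipase, had 786 RPM in untreated females (751 to 823) and 0 tags in all 7 other columns. Against the floor of 3 tags it was at least 827-fold higher in untreated than in methyltestosterone females. TSPAN8, a tetraspanin, had 294 RPM untreated, 8.88 after methyltestosterone, 15.9 after oil and 5.14 after tributyltin. FABP6, the ileal bile acid carrier, had 1012, 44.7, 73.1 and 48.9 RPM in the same order, and 217 to 268 RPM in the male columns. The mucin-processing gene AGR2 (at least 59.4-fold), the guanylin gene GUCA2A (at least 55.7-fold) and the villin gene VIL1 (at least 35.6-fold) had 0 tags after methyltestosterone. KRT20, an intestinal keratin, had 146 tags untreated and 3 after methyltestosterone, a ratio of 66.7 (22.4 to 327). CDH17, an intestinal cadherin, and TACSTD1, which encodes the epithelial surface protein EPCAM, were 30.6-fold and 35.2-fold higher in untreated females. MNR2, a homeobox gene outside the gut list, had 50.8 RPM untreated and 1 tag after methyltestosterone, a ratio of 160 with a counting interval of 28.2 to 6387, and 17.7 to 48.7 RPM in the male columns.

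Of 16 measured genes of the gut epithelium list, 13 were at least 2-fold lower after methyltestosterone and 0 higher, with a median log2 difference of -4.51. Measured means a mean of at least 10 RPM over these same 2 columns, here and in every other list. PLA2G2E, AGR2, GUCA2A and VIL1, with 0 tags after methyltestosterone, entered through the untreated column alone. TSPAN8 and KRT20, below 10 RPM after methyltestosterone, also passed only through the untreated column. This count and median thus lean towards falls, and the list was drawn up with earlier results of these data known. In 12 of the 16 the untreated female column was at least 2-fold above all 7 other columns. The 29 matched genes of that list summed to 4234 RPM in untreated females, 1148 after methyltestosterone, 1379 after oil and 2194 after tributyltin, and to 694 to 915 RPM in the male columns. 1 of the 29 genes had no tag in untreated females, and 12 had none after methyltestosterone. In the pancreas and liver list 2 genes were measured and neither passed 2-fold, and the sums were 94.7 and 93.2 RPM.

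Smooth muscle and kidney genes were high in the same column. Of 11 measured smooth muscle genes 9 were lower after methyltestosterone, with a median of -1.53, and in 6 the untreated column was at least 2-fold above each other female column. It was at least 2-fold above all 7 other columns in only 2 of the 11, MYH11 and MYLK. MYH11, the smooth muscle myosin heavy chain, had 871 RPM untreated, 103 after methyltestosterone, 118 after oil and 152 after tributyltin, and 118 to 187 RPM in males. MYLK, the myosin light chain kinase, had 1714, 380, 489 and 684 RPM in the female columns. MYL9, a myosin light chain, stood apart from these, with 289 RPM untreated, 54.8 after methyltestosterone, 216 after oil and 147 after tributyltin, and 157 and 41.8 RPM in untreated and methyltestosterone males. Its fall was called over both sexes (limma log2 -2.13, SE 0.29, adjusted p = 0.0166).

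Of 9 measured mesonephros and kidney genes 7 were lower, in each of which untreated females were at least 2-fold above all 7 other columns, and the list summed to 1503 RPM untreated and 511 RPM after methyltestosterone. LRP2 (megalin) had 88.2 RPM untreated, 12.7 after methyltestosterone, 3.18 after oil and 7.72 after tributyltin, and PCK1, a gluconeogenic enzyme, had 497, 121, 88.9 and 126 RPM in that order. The part of tissue from outside the gonad in any difference between these 2 columns was not tested, and in pooled tissue fewer cells of a type and less RNA per cell cannot be told apart.

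**Figure D2:**
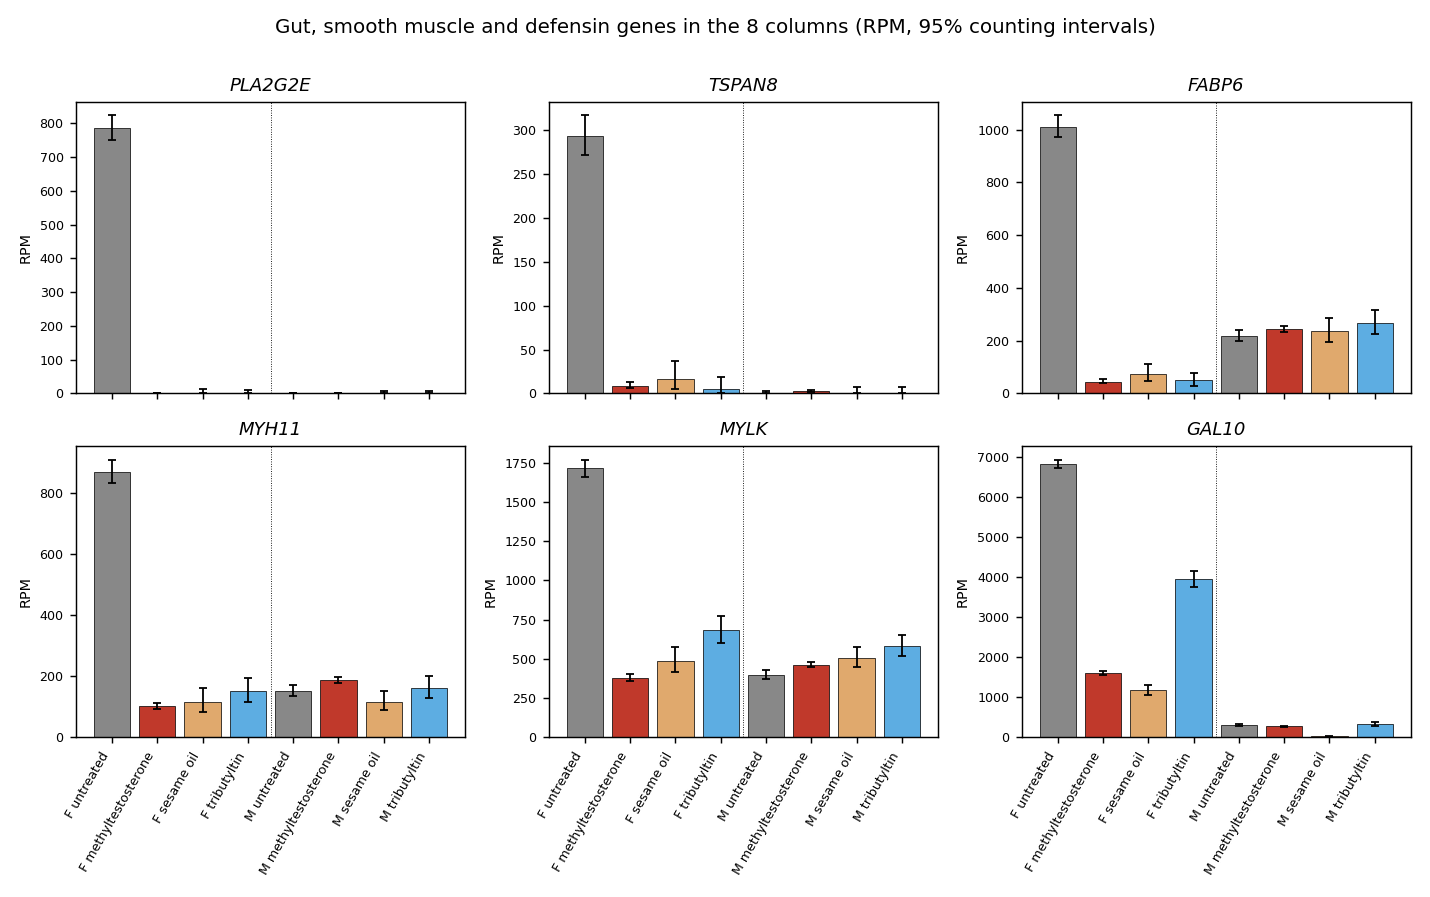
Level of 6 genes in RPM (vertical axis, linear, from 0) in the 8 columns, with bars for the deposited value and lines for the exact Poisson 95% counting interval. The untreated female column stands alone for PLA2G2E (786 RPM against 0 tags elsewhere), TSPAN8, FABP6, MYH11 and MYLK, whereas GAL10 is also high in tributyltin females.

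The untreated column was at least 2-fold above each of the other 3 female columns for 180 of the 533 lower genes (33.8%, or 2.87% of all genes measured), and above all 7 others for 101. The methyltestosterone column was at least 2-fold below each other female column for 99 (18.6%). Among the 770 higher genes the methyltestosterone column was at least 2-fold above each other female column for 325 (42.2%, or 5.18% of all genes measured), AMH, FDFT1 and DBH among them. Untreated was at least 2-fold below each other female column for 157 (20.4%), CYP19A1 among them. Each of these orders requires a 2-fold difference between untreated and methyltestosterone females. The 101, 99 and 157 genes are thus also the counts among all 6273 genes measured. In males the methyltestosterone column was at least 2-fold above each other male column for 165 of the 6273 genes (2.63%), and for 52 of the 325 (16%).

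Matrix genes had 0 of 32 measured members higher and 8 lower, with a median of -0.32, beside 12.3% higher and 8.5% lower over all genes. The lower ones included LUM (lumican, 1133 to 346 RPM), FBLN1 (fibulin, 289 to 88.1 RPM), MMP2 (a matrix metalloprotease, 443 to 137 RPM) and COL9A1 (a cartilage collagen, 47.8 to 6.66 RPM). In 3 of the 8 the untreated column was at least 2-fold above each other female column, COL9A1 among them. LUM had 610 and 808 RPM after oil and tributyltin, so that methyltestosterone was the low column. Of 7 endothelial genes LYVE1, a lymphatic marker, was lower, at 89.1 and 18.7 RPM, and 0 were higher. Its other columns held 9.53 to 38.6 RPM, so untreated females stood at least 2-fold above all 7.

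The list for the adrenal, which lies against the gonad, was drawn up from chromaffin, cortical and neuronal genes. It split, with 1 of 9 measured genes higher, 3 lower and 5 within 2-fold. PNMT, which makes adrenaline, had 228 RPM untreated and 79.9 RPM after methyltestosterone, and the granule proteins CHGA and CHGB had 488 and 366 RPM untreated against 185 and 121 RPM. In oil and tributyltin females PNMT had 19.1 and 15.4 RPM, CHGA 76.2 and 149 RPM, and CHGB 292 and 545 RPM. For PNMT and CHGA untreated females were at least 2-fold above all 7 other columns. In males the log2 differences were -2.48 for PNMT, -2.39 for CHGA and -1.97 for CHGB. DBH, which makes noradrenaline, had 6.52 RPM untreated (3.65 to 10.7), 92.2 after methyltestosterone (81.9 to 103), 6.35 after oil and 12.9 after tributyltin, so it was high in 1 female column. Its ratio was 14.2 (8.44 to 25.6), and the male columns had 0.512 RPM untreated and 5.40 RPM after methyltestosterone. TH, the first enzyme of the same pathway, had 89.1 and 63.7 RPM in females, with 6.35 after oil and 43.7 after tributyltin. The list of 16 matched genes summed to 1738 RPM untreated and 1070 RPM after methyltestosterone.

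Of 8 measured red cell genes 2 were higher and 0 lower, with a median of 0.56, beside 12.3% higher and 8.5% lower over all genes. HBAD, an alpha-type globin, had 1786 and 3822 RPM in females, and KLF1, the erythroid transcription factor, 19.99 and 41.2 RPM. The red cell list summed to 10645 RPM untreated, 16883 after methyltestosterone, 9920 after oil and 12143 after tributyltin. Of 11 leukocyte genes DMB2, an MHC class II gene, and CD69, an activation marker, were higher and 0 were lower. The β-defensin GAL10, placed in the oviduct list, had 6816 RPM untreated, 1605 after methyltestosterone, 1182 after oil and 3940 after tributyltin, against 28.4 to 329 RPM in males. GAL1, another β-defensin, went the other way, at 593 RPM untreated and 1209 after methyltestosterone. Oil females had 1042 RPM of GAL1, near the methyltestosterone value, and tributyltin females 455 RPM.

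None of the 5 measured germ cell genes passed 2-fold, and their median log2 difference was 0.12. Of 8 meiosis genes 1 was higher and 0 were lower. Proliferation genes moved both ways, with CCNE1, CENPE and MCM4 higher, 2 lower including RRM2, and 14 of 19 within 2-fold. Of 22 heat shock and protein folding genes HSPA4L and PDIA3 were higher and HSPA4 lower. Of 10 immediate early genes CTGF, a growth factor response gene, was lower (472 to 136 RPM). Among the 12 genes of the mitochondrial genome MT-ATP8 and MT-CO3 were lower, with 423 and 8006 RPM untreated against 59.3 and 3712 RPM.

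**Figure D3:**
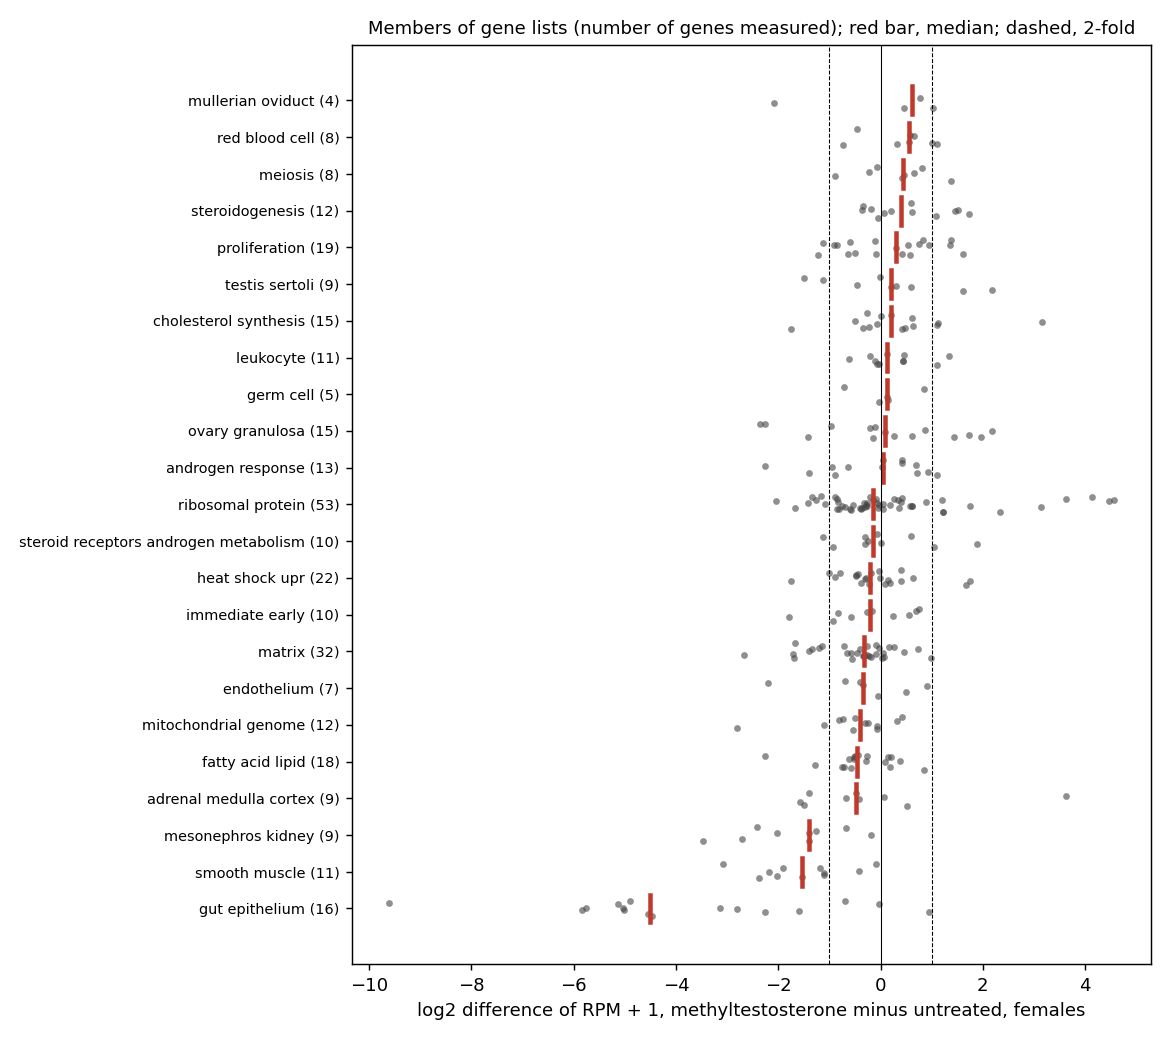
Log2 difference of RPM + 1 between methyltestosterone and untreated females (horizontal axis) for each measured gene of 23 lists (rows, number of genes in brackets), with red bars for list medians and dashed lines at 2-fold. Gut epithelium, smooth muscle and kidney lie lowest, with medians of -4.51, -1.53 and -1.40, and the remaining medians lie between -0.48 and 0.61.

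Large rises outside the lists above included genes with few tags in untreated females. SGSH, a lysosomal sulphatase, had 1 tag untreated and 217 tags after methyltestosterone, a ratio of 158 with a counting interval of 28.1 to 6282. EMC1, a membrane protein insertion factor, had 9.99 RPM untreated, 230 after methyltestosterone, 38.1 after oil and 59.2 after tributyltin. H2AFV, a histone variant with a close paralogue, had 23.5, 483, 156 and 175 RPM in that order. RPS28, a ribosomal protein of the small subunit, had 30.4, 695, 499 and 144 RPM. In EMC1, H2AFV and RPS28 methyltestosterone stood above the oil and tributyltin columns. They had 23, 54 and 70 tags in untreated females, in that order.

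Cytosolic ribosomal protein genes, a list added after the values were seen, had 10 of 53 measured members higher and 7 lower. Over all genes measured 12.3% were higher and 8.5% lower, and whether the list departed from those shares was not tested. RPS28 and RPL38 (1.74 to 47.2 RPM) were among the higher members, and RPL35 (2660 to 647 RPM) and RPL35A (2027 to 635 RPM) were lower. Near-identical copies of such genes exist, so the authors' assignment of tags to them is uncertain.

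The male comparison shares no column with the female one. Over the same 6273 genes 495 were at least 2-fold higher in methyltestosterone than in untreated males (7.89%) and 265 at least 2-fold lower (4.22%), with a median log2 difference of 0.13. Of the 770 genes higher in females 274 (35.6%) were at least 2-fold higher in males and 705 (91.6%) had the same sign. Of the 533 lower genes 127 (23.8%) were at least 2-fold lower in males and 433 (81.2%) had the same sign. The share of all 6273 genes with each sign in males was not counted, so the same-sign shares have no background beside them. The male median above 0 means that an even split is not that background. Across genes the female and male log2 differences had a Pearson r of 0.59 over 6273 genes, which share their libraries and are not independent. The gut list had a median log2 difference of 0.0 in males against -4.51 in females, the smooth muscle list -0.20 against -1.53, and the kidney list -0.72 against -1.40. Measured genes were filtered on the female columns alone. Of the 29 matched gut genes 10 had no tag in untreated males and 8 none in methyltestosterone males. PLA2G2E and VIL1 had 0 tags in both, so a male difference of 0 can mean no tags and not an unchanged level.

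**Figure D4:**
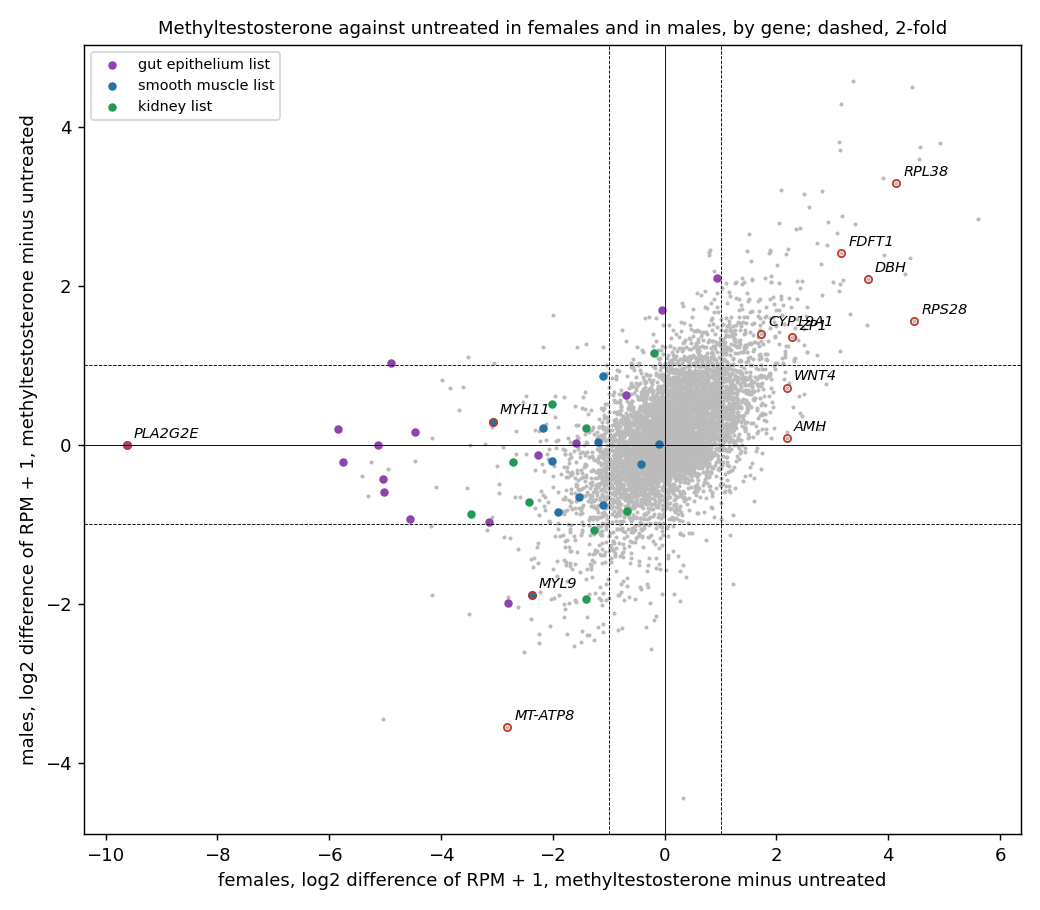
Log2 difference of RPM + 1, methyltestosterone minus untreated, in females (horizontal axis) and in males (vertical axis), 1 point per gene for 6273 genes, with members of 3 lists coloured, selected genes ringed and dashed lines at 2-fold. FDFT1 and DBH were past 2-fold higher in both sexes, DBH in males only from 0.512 to 5.40 RPM. AMH lay at 2.19 in females and 0.09 in males. Most gut genes were low in females with male differences near 0, some of them with no tag in these males.

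Over both sexes limma, with sex as a term and all 8 columns in the fit, called 21 genes higher after methyltestosterone than untreated (0.226% of 9280) and 11 lower (0.119%). These p-values measure the spread between columns, not between animals. In 18 of the 21 all 4 oil and tributyltin columns stood above both untreated columns, and in 6 both methyltestosterone columns stood above all 4. PEX10, a peroxisome factor (log2 4.46, SE 0.54, adjusted p = 0.0158), and DNAJA4, a chaperone (log2 2.87, SE 0.37), belonged to the first kind. FDFT1, EMC1 and PMPCA, a mitochondrial protease subunit (log2 3.03, SE 0.39), belonged to both kinds. Of the 11 lower genes 8 had both methyltestosterone columns below all 4 oil and tributyltin columns, MYL9, RPL35, RPL35A and RPL23 among them. In 9 the oil and tributyltin columns all lay below both untreated ones, as for MT-ATP8. The share of all 9280 genes with these orders of columns was not counted, so the counts describe the called genes alone.

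The number of these calls depended on the columns kept. Leaving out either column of oil or of tributyltin leaves the other fitted by its own term, so the estimates are the same for both. Without the male or the female tributyltin column limma called 0 higher and 0 lower genes. It called 33 and 14 without the female oil column, 15 and 5 without the female untreated column, 7 and 7 without the female methyltestosterone column, and 17 and 7 without the male methyltestosterone column.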

How the data were processed

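The submitters' processing notes name Novoalign and the build galGal4 for SuperSAGE tags, and versions are not given in the sources used here. The authors deposited RPM values for 14074 Ensembl genes in 8 columns, with left and right gonads joined in a way not given in the sources used here. A deposited filler of 0.05 RPM stood for no tag and was set to 0. All values (100%) then lay within 0.01 of a whole tag, which gave each column's depth. The table also held the authors' p-value for the pair, from a test not given in the sources used here: 5051 of 12083 genes in the authors' deposited table had a p under 0.05. The authors' deposited log2 ratios equalled the log2 ratio of their values. Of the genes 1731 had no symbol and 13 symbols had become dates.

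Differences are log2(RPM + 1), and ratios are of RPM. limma 3.58.1 (mean trend, R 4.3.3) was fitted to the 9280 genes that reached 1 RPM in 4 or more columns, with sex and substance as terms, and again with a term for methyltestosterone females, at a Benjamini-Hochberg adjusted p under 0.05. The fits to all 8 columns left 3 and 2 residual degrees of freedom, and fits with 1 column left out had fewer. Because the values were RPM, edgeR 4.0.16 and DESeq2 1.42.0 on recovered tags were alternatives. Scripts were tested on simulated data. Named genes were the 12 largest differences each way with at least 50 RPM, up to 4 past 2-fold from each list, a fixed list of sex and steroid genes, up to 8 each way by agreement or opposition of the sexes, and up to 8 called each way. Some genes that this rule names are not reported here. The comparison and the lists were chosen with earlier results of these data known.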

Additional observations from a re-analysis of the deposited data

Results flagged for a closer look

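The following 7 genes were at least 2-fold different in opposite directions in the 2 sexes, females against males, which was not tested. The log2 difference in females was 1.17 for ZNF503, 1.22 for RPS27A, -2.18 for SLC5A11, -1.40 for PDZK1IP1, -1.99 for CL2, -3.51 for ANXA13 and -1.10 for TM2D1. In males these were -1.14, -1.75, 1.23, 1.27, 1.63, 1.10 and 1.23. SLC5A11, CL2 and ANXA13 had at most 2.25 RPM in the untreated and methyltestosterone male columns. RPS27A had 2198 and 2906 RPM in oil and tributyltin females against 32.1 and 76.4 RPM in the untreated and methyltestosterone ones. Its male columns split the same way, with 1565 and 2444 RPM against 93.7 and 27.1 RPM in that order.

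The gap between the sexes after methyltestosterone differed from that after the other substances for 5 genes in edgeR, with log2 values of 2.22 for AMH (adjusted p = 0.0216), 2.75 for RPS28 (0.000103), 2.04 for RPLP0 (0.0408), 7.20 for ENSGALG00000026142 (1.2e-08) and -6.90 for TSPAN8 (0.000347). limma called 0 of them. TSPAN8 had 1 tag in untreated males, 14 tags after methyltestosterone and 0 tags after oil and after tributyltin, so its male values are near the floor. In females it had 294 RPM untreated and 8.88 RPM after methyltestosterone, a log2 difference of -4.90 against 1.04 in males. Levels of ENSGALG00000026142 are not reported here. RPLP0 had 1082 and 978 RPM in untreated and methyltestosterone females and 2212 and 497 RPM in the males, so its gap came with a male difference.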

How the results depend on the processing

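No paired analysis was possible because the labels give no replicate numbers and each group is 1 column. The counts of 770 higher and 533 lower genes in females were 1297 and 1094 with no filter, 343 and 243 at a mean of at least 50 RPM, and 332 and 271 for counting intervals wholly past 2-fold. They stayed within 1.5 times under pseudocounts of 0.5 and 5, median-of-ratios scaling (665 and 603) and thinning of the deeper column. Without the lists of other tissues and blood they were 765 and 510. That setting kept 6218 of the 6273 genes, the smooth muscle list among them, so the counts could barely move. It does not test the part of tissue from outside the gonad. Over both sexes the 21 higher and 11 lower calls of limma became 36 and 24 at a pseudocount of 5, 0 and 0 with no filter, 52 and 28 at a mean of at least 20 RPM, 260 and 285 in edgeR, 168 and 156 in DESeq2, and 763 and 435 with the untreated and methyltestosterone columns alone. The lower calls became 3 at a pseudocount of 0.5 and 18 under median-of-ratios scaling. Leaving out 1 column gave 0 to 33 higher and 0 to 14 lower calls. For the sex gap, where limma called 0, edgeR called 4 higher and 1 lower and DESeq2 3 higher, and leaving out 1 column gave 0 to 3 higher and 0 to 5 lower. It gave 3 higher without the male oil or the female oil column, 3 higher and 5 lower without the male tributyltin column, 2 and 3 without the female tributyltin column, and 0 higher with 3 and 1 lower without the male and the female untreated column. The cause of these changes was not tested. Of 133 named values, 29 moved past their counting interval at a pseudocount of 5, 5 under median-of-ratios scaling and 0 under the other 2 settings, and 0 changed direction after a call. Depth limits genes under about 10 RPM, since 3 tags were 9.53 RPM in oil females and 7.72 RPM in tributyltin females.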
